A study of Mus musculus with 18 samples.

Results

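The mRNA profiles of hypothyroid and control mouse liver came from 10 of the 18 samples of the series, taken by their labels as every microarray sample, 5 hypothyroid and 5 control. The other 8 samples held miRNA measurements and were not used here. All pups were C57BL/6 males whose livers were taken at postnatal day (PND) 15, with 1 pup from each litter according to the methods. Control dams and litters drank water with 1% sugar. Hypothyroid dams and litters drank the same water with methimazole (MMI, 0.05%) and perchlorate (1%) added from PND 12. The methods describe an injection of phosphate-buffered saline in both groups 4 hours before the liver was taken, which the labels do not mention. Effects of lost hormone and of the agents themselves on the pups' livers cannot be told apart in this pair of groups. Each liver RNA was hybridised with a universal mouse reference RNA on a 2-colour Agilent array, and every level below is a log2 ratio of liver over reference.

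Thyroid hormones act on liver mainly through nuclear receptors that bind response elements and change the transcription of nearby genes. MMI blocks the iodination steps of hormone synthesis in the thyroid gland, and perchlorate blocks the uptake of iodide by the gland. Among the known targets in liver are Dio1, the deiodinase that activates thyroxine, Thrsp and Me1, which serve fat synthesis, and genes of cholesterol and energy metabolism. Detoxification in liver runs through oxidation by cytochromes P450 and other enzymes, then conjugation with glutathione, glucuronate or sulfate, then export by transporters. The 5 gene classes described here are detoxification, lipid, mitochondria, cytoskeleton and immune genes, split into 35 groups by gene name.

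The array design held 41174 probes that were not controls, and 33096 of them lay above the background limit set from negative control spots. Between 75.8% and 85.4% of probes were above that limit on each array, and no spot was saturated. A gene symbol was found for 23374 probes, which gave 16535 genes, 14927 of them above the limit. Each gene was read from its brightest liver probe. On slide 141 the log2 ratios of control 832 and hypothyroid 576, taken with the dyes as labelled, ran opposite to the average ratio on the remaining slides (r = -0.972 and -0.977 across probes). Their red and green channels were therefore exchanged, by turning the sign of each normalized log2 ratio, against the labels and the methods, and every value below includes that exchange unless slide 141 was left out. Control 616 stood apart in another way. With the channels of slide 141 exchanged, its correlation with the average of the other slides was 0.880 against 0.972 to 0.987 elsewhere. The SD of its log2 ratios was 0.722 against 0.992 to 1.08, and 568 of its spots carried outlier flags against 82 to 154. The 1532 probes with the most liver signal over reference lay 0.85 below their 10-array mean on control 616, and between -0.043 and 0.17 on the other arrays. Results that rest on control 616 are given with it and without it.

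Marker genes of liver cell types moved with these doubts. The hepatocyte markers Alb, Ttr, Apoa1 and Tat, all 4 measured of 5 listed, averaged 2.68 on control 616, 3.91 to 4.37 on the other controls and 4.09 to 4.64 on the hypothyroid arrays. Their summed level, as log2 of the summed ratios, ran from 4.78 to 6.36 in controls and from 6.36 to 6.73 in hypothyroid livers. Alb and Tat were higher in hypothyroid liver at unadjusted p below 0.05 in limma, and without control 616 only 1 of the 4 was. Markers of exocrine pancreas also differed, with 6 of 7 measured. Their average was 3.48 on control 832, 3.63 on control 522 and 1.91 on control 616, while the other controls lay at 0.90 and 0.96 and the hypothyroid arrays between 0.76 and 0.93. Cela1, Cpa1, Ctrb1 and Cel of that list were lower in hypothyroid liver at unadjusted p below 0.05. The part of pancreatic RNA or of hepatocyte RNA share in the results below was not tested. Markers of Kupffer cells, sinusoidal endothelium, lymphocytes and neutrophils held 0 genes past unadjusted p in either direction, among 5, 5, 4 and 5 measured. Of 5 stellate cell markers, Reln was higher by that p and 0 were lower, while Lrat, Des, Col1a1 and Pdgfrb had negative differences. The median difference of the 5 was -0.19. Without control 616 it was -0.16, and 0 passed in either direction. In bulk tissue, fewer cells of a type and less RNA per cell cannot be told apart.

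Gene by gene, few differences passed a test adjusted over the whole array. With all 10 arrays, limma's moderated test with Benjamini-Hochberg adjustment called 2 of 41174 probes, or 0.00486% of them, and neither carried a gene symbol here. Both fell, by 1.80 and 1.09 on the log2 scale, with adjusted p = 0.0038 and 0.0154 in limma. Without control 616, the same limma test called 25 probes, 0.0607% of all. These gave 18 named genes, 5 of them detoxification genes, 1 a lipid gene and 1 a cytoskeletal gene. Before adjustment, with p below 0.05, 4.04% of the 14927 genes were higher in hypothyroid liver and 5.25% lower. All 5 hypothyroid values lay above all 5 control values in 1.20% of genes and below them in 1.22%. These shares are the background for every count below. Leaving out control 616 gave 4.09% higher and 5.26% lower by p, and 1.57% higher and 1.63% lower by lack of overlap. Without slide 141 they were 4.78% and 4.61% by p, and 3.39% and 2.78% by lack of overlap among the 4 arrays left in each group. The split of directions moved with the scaling, from 603 genes higher and 783 lower at unadjusted p below 0.05 to 481 and 414 with the scanner software's processed signals and to 99 and 36 with arrays only centred on their medians.

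The known thyroid targets were read first as a check of the treatment. In every list that follows, control values are given in the order 881, 832, 522, 616 and 391, and hypothyroid values in the order 891, 576, 311, 723 and 626. Thrsp, the thyroid hormone responsive protein of fat synthesis, read 2.40, 2.27, 2.10, 1.01 and 1.63 in controls and 1.31, 0.54, 1.20, 0.067 and 0.48 in hypothyroid livers. Only control 616 fell inside the hypothyroid range, and the difference was -1.16 ± 0.30 (SE, n = 5 and 5; limma adjusted p = 0.408). Dio1 read 5.46, 5.76, 5.48, 3.94 and 5.53 in controls and 4.43, 4.91, 3.52, 4.28 and 4.31 in hypothyroid livers. Control 616 was again the exception, lying below 4 of the 5 hypothyroid arrays, and the difference of -0.94 ± 0.35 became -1.27 ± 0.21 without it (limma adjusted p = 0.677 and 0.0783). Me1, the cytosolic malic enzyme that makes NADPH for fat synthesis, read -1.29, -1.33, -1.40, -1.09 and -0.96 in controls and -1.45, -1.60, -1.79, -1.90 and -1.70 in hypothyroid livers. The groups did not overlap, and the difference was -0.48 ± 0.10 (limma adjusted p = 0.292). All of these known targets were lower by their group means, and none passed adjustment with or without control 616.

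By class, detoxification genes stood highest in hypothyroid liver. Over 241 detoxification genes the median log2 difference, hypothyroid minus control, was 0.25 against -0.017 over all genes. The median was 0.067 for 210 lipid genes, -0.029 for 289 mitochondrial genes, -0.070 for 291 cytoskeletal genes and -0.031 for 376 immune genes. Control 616 carried much of the first of these values, since without it the detoxification median was 0.091 and that of all genes -0.0042. Without that array the lipid, mitochondrial, cytoskeletal and immune medians were 0.010, -0.029, -0.0065 and -0.020. With arrays only centred on their medians, where the median of all genes was 0.11, the mitochondrial, cytoskeletal and immune medians turned positive, at 0.15, 0.064 and 0.075. As class medians of each gene's deviation from its 10-array mean, the detoxification class read -0.016, 0.061, 0.041, -0.63 and -0.047 on the control arrays and 0.083, 0.10, 0.20, 0.10 and 0.087 on the hypothyroid arrays. Every hypothyroid array lay above every control array, by a narrow margin except for control 616. Within the 4 slides that held both groups, the detoxification median difference was 0.083, 0.036, 0.11 and 0.74 on slides 139, 141, 136 and 100, the last of which held control 616.

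**Figure D1:**
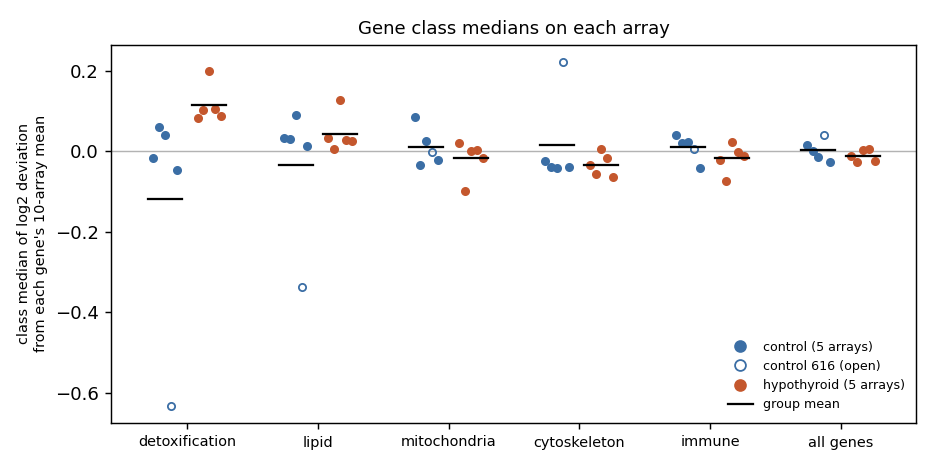
Class medians on each array: the vertical axis is the median over a class of each gene's log2 deviation from its 10-array mean, and each point is 1 array. The 5 hypothyroid arrays lie between 0.083 and 0.20 for detoxification genes, above all controls, and control 616 (open circle) lies at -0.63 for detoxification, -0.34 for lipid and 0.22 for cytoskeleton genes.

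The counts of single genes pointed the same way as the detoxification median and depended less on control 616. In the detoxification class, 42 of 241 genes were higher at unadjusted p below 0.05 and 6 were lower, where the shares of all genes would be 4.04% and 5.25%. The groups did not overlap for 24 genes that were higher and for 1 that was lower. Without control 616 the counts were 46 higher and 8 lower by p, and 25 and 1 by lack of overlap. Without slide 141 they were 44 and 4 by p, and 42 and 3 by lack of overlap.

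The glutathione S-transferases, enzymes that join glutathione to reactive compounds, held the largest share of higher genes of all 35 groups. Of 22 measured, 13 were higher at unadjusted p below 0.05 and 0 lower, and 21 had a positive difference. Their median difference was 0.48, and 0.34 without control 616. In 8 genes the groups did not overlap, with control 616 and without it. Within slides 139, 141, 136 and 100 the group's median difference was 0.33, 0.19, 0.55 and 1.11. The 13 genes spread over several classes of the family. The mu-class genes, Gstm1, Gstm2, Gstm3, Gstm4, Gstm6 and Gstm7, were 6 of them, with Gsta2 and Gsta4 of the alpha class, Gstp1 and Gstp3 of the pi class, Gstt2 and Gstt3 of the theta class, and the membrane-bound Mgst1. Promoter windows of the mu genes all lay on the minus strand of chromosome 3, within 113.5 kb between 107931565 and 108045106 of the GRCm38.p6 build of RefSeq, and those of the pi genes within 21.8 kb on chromosome 19. Members of this family are alike in sequence, and how far their probes share transcripts could not be assessed, since probe sequences were not used here.

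Gstm1, the main mu-class enzyme of mouse liver, read 2.17, 1.81, 1.94, 1.65 and 1.72 in controls and 3.24, 2.94, 3.88, 2.96 and 3.40 in hypothyroid livers. The highest control, 881, lay 0.77 below the lowest hypothyroid array, 576. The difference was 1.43 ± 0.17, a 2.69-fold higher level (limma adjusted p = 0.0619). Without control 616 it rose by 1.38 ± 0.18 with adjusted p = 0.0272 in limma, and another probe of the gene gave 1.23. Gstm3 read 2.07, 2.0, 2.06, 1.42 and 1.90 in controls and 3.08, 3.12, 3.62, 2.77 and 3.17 in hypothyroid livers. Control 616 was the lowest of all, and the groups stayed apart with or without it. The difference was 1.26 ± 0.16 with limma adjusted p = 0.0619, and 1.14 ± 0.13 with adjusted p = 0.0196 without control 616. Gstt2, a theta-class enzyme, read 1.90, 1.91, 1.79, 1.15 and 1.89 in controls and 2.26, 2.55, 2.57, 2.52 and 2.64 in hypothyroid livers. Leaving out control 616 narrowed the spread of the controls, and the difference moved from 0.78 ± 0.14 to 0.63 ± 0.078 (limma adjusted p = 0.178 and 0.0222). The alpha-class gene Gsta2 read -0.47, -0.32, -0.46, -0.27 and -0.39 in controls and 0.012, 0.44, 0.79, -0.18 and 0.50 in hypothyroid livers. Here hypothyroid 723 came within 0.09 of control 616, the highest control, and the hypothyroid arrays differed from each other by up to 0.97. Gstp1 of the pi class read -0.50, -0.64, -0.61, -0.20 and -0.69 in controls and 0.027, -0.17, 0.46, -0.14 and -0.18 in hypothyroid livers, with a gap of 0.02 between control 616 and hypothyroid 626. Differences of the remaining 8 genes ran from 0.28 for Mgst1, whose other probe gave 0.79, to 0.77 for Gstm6.

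**Figure D2:**
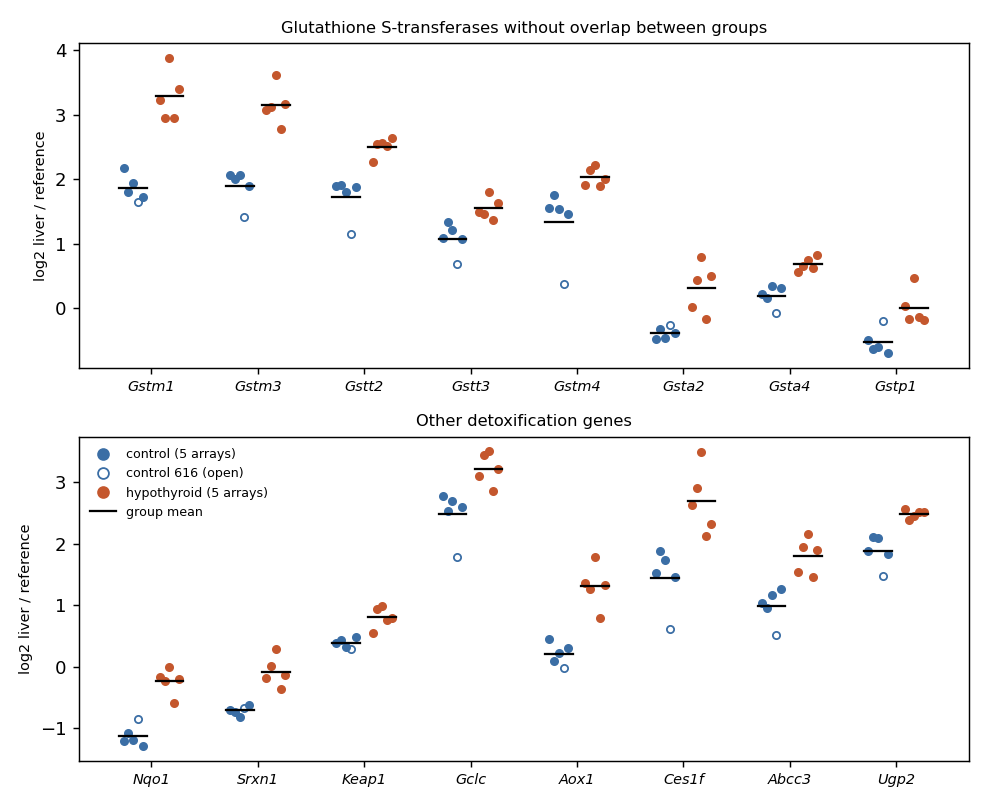
Log2 ratio of liver over reference on each array for 8 glutathione S-transferases (top) and 8 other detoxification genes (bottom), with group means as lines. The top panel holds the 8 of 22 measured glutathione S-transferases chosen for having no overlap between the groups. The 8 genes of the bottom panel, picked with their values known, have none either. In the class, 24 of 241 genes were higher without overlap. Control 616 (open circle) is the lowest control for Gstm3, Gstt2 and Gclc but the highest for Nqo1, Gsta2 and Gstp1.

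The median of the antioxidant response genes moved little without control 616. Of 33 such genes, 6 were higher and 1 lower at unadjusted p below 0.05, and in 5 the groups did not overlap. Their median was 0.094, and 0.078 without control 616. Within slides 139, 141, 136 and 100 it was 0.089, 0.0058, 0.17 and 0.11. Nqo1, the quinone reductase, read -1.20, -1.08, -1.18, -0.85 and -1.29 in controls and -0.16, -0.23, -0.0079, -0.58 and -0.20 in hypothyroid livers. The nearest values of the groups, control 616 and hypothyroid 723, were 0.27 apart. The difference was 0.88 ± 0.11 (1.84-fold, limma adjusted p = 0.0619), and without control 616 the gene rose by 0.95 ± 0.10 (limma adjusted p = 0.012). Srxn1, the sulfiredoxin that repairs oxidised peroxiredoxins, read -0.70, -0.74, -0.82, -0.66 and -0.62 in controls and -0.19, 0.0082, 0.28, -0.36 and -0.14 in hypothyroid livers, a difference of 0.63 ± 0.11. Its other probes gave 0.36 and 0.41. Gclc, the catalytic subunit of the limiting enzyme of glutathione synthesis, read 2.77, 2.53, 2.68, 1.78 and 2.60 in controls and 3.09, 3.43, 3.50, 2.85 and 3.21 in hypothyroid livers. The difference of 0.74 ± 0.19 was 0.57 ± 0.12 without control 616, the lowest array by far. Keap1, the adaptor that holds the antioxidant regulator Nrf2 in check, read 0.38, 0.44, 0.32, 0.28 and 0.48 in controls and 0.54, 0.94, 0.98, 0.76 and 0.79 in hypothyroid livers, and Prdx6, a peroxiredoxin, differed by 0.36 ± 0.14. Gsr, glutathione reductase, differed by 0.25 ± 0.094 with overlap between the groups. Taldo1, an enzyme of the pentose phosphate pathway, was the lower member at -0.22 ± 0.10, with overlap. Without control 616 Taldo1 differed by -0.17 ± 0.096. The group then held 8 higher and 0 lower genes at unadjusted p below 0.05 in limma.

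Medians of the oxidation enzymes followed control 616. Among 49 other oxidation and reduction enzymes, 10 were higher and 1 lower at unadjusted p below 0.05, with control 616 and without it. Their median of 0.31 was 0.12 without that array, and within slides 139, 141, 136 and 100 it was 0.11, 0.043, 0.14 and 0.98. Aox1, aldehyde oxidase, read 0.46, 0.090, 0.22, -0.019 and 0.30 in controls and 1.36, 1.26, 1.78, 0.79 and 1.32 in hypothyroid livers. The groups were apart by 0.33, and the difference was 1.09 ± 0.16 (limma adjusted p = 0.108, and 0.0573 without control 616). Ephx1, the microsomal epoxide hydrolase, read -0.61, 0.50, -1.86, -0.077 and 0.20 in controls and 0.56, 1.15, 0.58, 0.62 and 0.83 in hypothyroid livers. Its controls spread over 2.37, with 522 lowest, and the groups were 0.05 apart, so that the difference of 1.12 ± 0.38 had limma adjusted p = 0.618. Ces1f, a carboxylesterase, read 1.53, 1.88, 1.74, 0.61 and 1.46 in controls and 2.62, 2.90, 3.48, 2.11 and 2.31 in hypothyroid livers, a difference of 1.24 ± 0.29. Akr1b10, an aldo-keto reductase, was the lower member, at -0.38 ± 0.14 with overlap. Among 51 cytochromes P450 of families 1 to 4 the median was 0.36 and 43 genes had a positive difference, but only 4 were higher at unadjusted p below 0.05 and 0 lower. The median of these P450 genes was 0.097 without control 616, with 5 higher and 2 lower. Within slides 139, 141 and 136 it was 0.12, 0.044 and 0.052, against 1.39 within slide 100. Cyp2c55 read 0.64, 0.26, 0.38, 0.18 and 0.24 in controls and 0.93, 0.95, 1.28, 0.81 and 1.52 in hypothyroid livers, without overlap.

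Conjugation and transport genes were fewer. All 16 genes of the glucuronosyltransferase group had a positive difference, with a median of 0.49 that was 0.16 without control 616. The group also held Ugp2 and Ugdh, which make the sugar donor and are not transferases. The 3 higher at unadjusted p below 0.05 were Ugp2, Ugt1a9 and Ugt2b35, and only Ugp2 had no overlap between hypothyroid and control arrays. Ugp2, the enzyme that makes UDP-glucose, read 1.87, 2.11, 2.09, 1.47 and 1.83 in controls and 2.56, 2.39, 2.45, 2.51 and 2.51 in hypothyroid livers. Its difference was 0.61 ± 0.11, and without control 616 it rose by 0.51 ± 0.074 (limma adjusted p = 0.047). Of 22 sulfotransferases and other conjugation enzymes, 4 were higher and 1 lower, and the median of 0.086 turned to -0.013 without control 616. Of 40 drug and organic ion transporters, 2 were higher and 3 lower. Abcc3, an exporter of conjugates across the basolateral membrane, read 1.03, 0.95, 1.17, 0.52 and 1.26 in controls and 1.54, 1.95, 2.15, 1.46 and 1.90 in hypothyroid livers, a difference of 0.81 ± 0.16, but its other probe gave 0.15. Slc22a29, an organic anion transporter, read 4.57, 5.02, 4.10, 3.87 and 3.94 in controls and 3.68, 4.01, 3.68, 3.57 and 3.50 in hypothyroid livers. Hypothyroid 576 lay inside the control range, and the sign of this difference turned with the scanner software's own processed signals. Abcc8, the sulfonylurea receptor, differed by -0.32 ± 0.11 with overlap. None of 8 xenobiotic receptor genes passed unadjusted p below 0.05 in limma's test in either direction, with all arrays or without control 616.

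**Figure D3:**
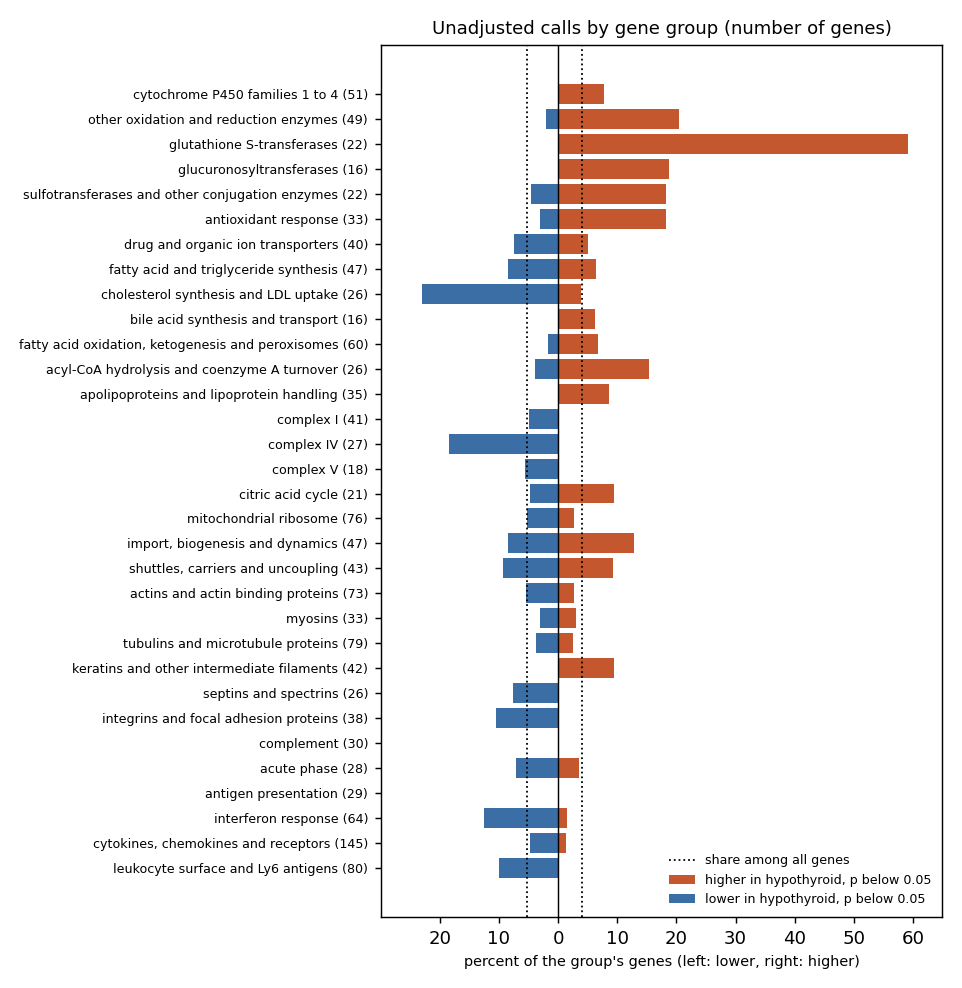
Share of genes with unadjusted limma p below 0.05 in each group of at least 10 genes, higher in hypothyroid liver to the right and lower to the left, in percent of the group's genes; dotted lines mark 4.04% and 5.25%, the shares of all genes. The glutathione S-transferases reach 59.1% higher, and the cholesterol group 23.1% and complex IV 18.5% lower.

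Promoter windows of 4 higher detoxification genes are printed to show where the letters of known response elements stood. They are those of Gstm1 and Gstm3, the glutathione S-transferases with the smallest p, and of Srxn1 and Mgst1, chosen because their windows held the antioxidant element. Mgst1 had the smallest difference of the 13 higher glutathione S-transferases, and the windows of Nqo1 and Aox1 held no such element. The windows run from 250 bases before to 50 after the annotated start and come from RefSeq for GRCm38.p6, which held an entry for 33 of the 42 higher detoxification genes. The core antioxidant element was searched as TGACNNNGC on both strands, and the thyroid response element as a direct repeat of AGGTCA spaced by 4 bases, also on both strands. Gstm1 (chr3:108017769-108018068) and Gstm3 (chr3:107969125-107969424) lie on the minus strand, and Srxn1 (chr2:152105274-152105573) and Mgst1 (chr6:138140277-138140576) on the plus strand. All are written 5′ to 3′ along the gene. Capitals mark AGGTCA in Gstm1, 5 bases before the start, and the antioxidant element in Srxn1, 28 bases after the start, and in Mgst1, 56 bases before it. Gstm1 and Mgst1 had 2 windows each, and the window with a match was printed, while the other window held no match. The match in Srxn1 overlaps an AGGTCA, and the Gstm3 window held neither set of letters.
Gstm1: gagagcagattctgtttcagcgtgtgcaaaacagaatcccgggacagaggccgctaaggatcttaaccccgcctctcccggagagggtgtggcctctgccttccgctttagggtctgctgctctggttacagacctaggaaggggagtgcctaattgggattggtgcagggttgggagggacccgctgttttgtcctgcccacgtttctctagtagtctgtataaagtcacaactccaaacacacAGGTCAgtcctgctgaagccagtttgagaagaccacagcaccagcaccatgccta
Gstm3: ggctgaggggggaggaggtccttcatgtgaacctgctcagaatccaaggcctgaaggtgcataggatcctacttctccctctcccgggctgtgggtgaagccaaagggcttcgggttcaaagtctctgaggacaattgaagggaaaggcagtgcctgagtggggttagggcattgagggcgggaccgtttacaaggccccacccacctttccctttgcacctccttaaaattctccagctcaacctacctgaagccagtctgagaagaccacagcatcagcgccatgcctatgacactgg
Srxn1: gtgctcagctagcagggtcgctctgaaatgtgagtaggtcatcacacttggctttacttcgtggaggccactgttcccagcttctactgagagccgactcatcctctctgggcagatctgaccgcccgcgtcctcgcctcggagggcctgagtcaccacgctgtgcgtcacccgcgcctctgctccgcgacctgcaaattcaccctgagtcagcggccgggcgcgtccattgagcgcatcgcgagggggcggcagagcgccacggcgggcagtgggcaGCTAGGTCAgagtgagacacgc
Mgst1: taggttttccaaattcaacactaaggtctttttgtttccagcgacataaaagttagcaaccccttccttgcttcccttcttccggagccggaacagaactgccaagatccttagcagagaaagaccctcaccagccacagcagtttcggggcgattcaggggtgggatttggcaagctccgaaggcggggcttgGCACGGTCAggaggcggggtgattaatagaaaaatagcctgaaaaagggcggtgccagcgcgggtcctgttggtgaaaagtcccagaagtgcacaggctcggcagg
The antioxidant element was in a window of 4 of these 33 genes, 12.1%. The share was 14.0% of 27025 genes in the table and 16.0% of the 11906 measured genes with a window. Among 20 glutathione S-transferases with a window it was in 4, or 20.0%, and among 28 antioxidant response genes in 7, or 25.0%. The direct repeat was in no window of the 11906 measured genes that had one, and in 4 of the 27025. A lone AGGTCA, as marked in Gstm1, is not that repeat. It was in a window of 18.1% of the 27025 genes, 16.0% of the 11906 and 5.0% of the 20 glutathione S-transferases. These are matches of letters in short windows and carry no test.

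Lipid genes split by pathway, and no direction held for the class as a whole. Of 210 genes, 16 were higher and 12 lower at unadjusted p below 0.05, against 4.04% and 5.25% of all genes, and 4 and 6 had no overlap. Without control 616 the counts were 16 and 19 by p and 4 and 11 by lack of overlap, and without slide 141 they were 15 and 15, and 12 and 10. Cholesterol synthesis and LDL uptake leaned to lower levels. Of 26 genes, 6 were lower and 1 higher by p, 7 had a positive difference, and the median was -0.21, or -0.15 without control 616. With median centring, where the median of all genes was 0.11, it was -0.014, with 0 genes lower and 0 higher by p in limma. Relative to all genes it was -0.19 in the main fit and -0.12 with median centring. Within slides 139, 141, 136 and 100 the group's median was -0.082, -0.19, -0.16 and -0.25. Dhcr7, which acts in the last steps to cholesterol, read 0.41, 0.27, 0.26, 0.40 and 0.084 in controls and 0.027, -0.15, -0.15, -0.0092 and -0.00076 in hypothyroid livers. Its difference was -0.34 ± 0.073, but another probe of the gene gave -0.0024. Msmo1 and Cyp51, enzymes of sterol demethylation, differed by -0.73 ± 0.18 and -0.45 ± 0.18, with other probes of Cyp51 at -0.35 and -0.096. Nsdhl differed by -0.28 ± 0.12, with other probes at -0.37 and -0.24. Srebf2, the regulator of the pathway, differed by -0.44 ± 0.13, but another probe gave 1.7e-04. Fdft1, squalene synthase, was the higher member at 0.53 ± 0.17, with another probe at 0.04. Leaving out control 616 gave 8 lower and 1 higher in this group.

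Fat synthesis genes went both ways. Of 47, 3 were higher and 4 lower at unadjusted p below 0.05, and the lower ones held Thrsp and Me1, described above. Elovl3, an elongase of long fatty acids, read 0.0046, 0.17, 0.72, 0.020 and 0.12 in controls and -0.17, -0.32, -0.13, -0.25 and -0.25 in hypothyroid livers, and was well above background on 3 of the 5 hypothyroid arrays. Fasn, fatty acid synthase, differed by -0.33 ± 0.13, and another probe gave -0.14. In the other direction, Acly, which makes cytosolic acetyl-CoA from citrate, read -0.086, 0.12, -0.071, -0.13 and 0.18 in controls and 0.19, 0.57, 0.29, 0.37 and 0.23 in hypothyroid livers, apart by 0.02. Scd1, the stearoyl-CoA desaturase, differed by 0.55 ± 0.22 with overlap between groups.

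Enzymes that handle acyl-CoA and coenzyme A held the lipid gene with the smallest p. Nudt7, a peroxisomal hydrolase of coenzyme A, read 4.35, 4.38, 3.91, 3.91 and 3.91 in controls and 3.50, 3.17, 3.03, 3.02 and 2.94 in hypothyroid livers. The groups were 0.41 apart and the level in hypothyroid liver was 0.514-fold that of controls, a difference of -0.96 ± 0.13 (limma adjusted p = 0.0839). Without control 616 it fell by 1.01 ± 0.14 (limma adjusted p = 0.0368), and another probe gave -0.71. Nudt19, another coenzyme A hydrolase of peroxisomes, read 1.67, 1.52, 1.20, 1.09 and 1.41 in controls and 1.81, 1.96, 1.85, 1.76 and 2.01 in hypothyroid livers, and so lay on the other side, at 0.50 ± 0.11. Acot3, a peroxisomal acyl-CoA thioesterase, read 1.69, 1.95, 1.09, 0.44 and 1.38 in controls and 2.04, 2.46, 2.44, 2.38 and 2.28 in hypothyroid livers. Control 616 was lowest, and the difference of 1.01 ± 0.24 was 0.79 ± 0.16 without it (limma adjusted p = 0.329 and 0.122). Of 60 genes of fatty acid oxidation, ketogenesis and peroxisomes, 4 were higher and 1 lower, and their median of 0.15 was 0.021 without control 616. Apolipoprotein and lipoprotein genes followed that array too, with a median of 0.26 over 35 genes that became 0.089 without it.

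Mitochondrial genes showed small differences, and the share of called genes was near that of all genes. Of 289, 14 were higher and 22 lower at unadjusted p below 0.05, and 4 and 4 had no overlap. Without control 616 the counts were 11 and 23, and 5 and 8. Without slide 141 they were 18 and 21 by p, and 18 and 18 by lack of overlap. Subunits and assembly factors of complex IV, cytochrome c oxidase, were 1 exception in direction. Of 27 measured, 5 were lower, Cox18, Cox5a, Cox7c, Cox5b and Cox15, and 0 higher, and 4 had a positive difference. Their differences ran from -0.75 for Cox7c to -0.15 for Cox5b, and the median of the group was -0.11, or -0.069 without control 616. With median centring, where the median of all genes was 0.11, it was 0.021. Relative to all genes it was -0.093 in the main fit and -0.084 with median centring. Within slides 139, 141, 136 and 100 the group's median was -0.27, -0.080, -0.010 and -0.26. The groups overlapped in all 27 genes, with control 616 and without it. Without slide 141 the complex IV median was -0.13. Of its 27 genes, 5 were then lower and 0 higher without overlap, against 2.78% and 3.39% of all genes. Cycs, cytochrome c, read 0.78, 0.57, 0.62, 1.20 and 0.60 in controls and 0.41, 0.49, 0.021, 0.27 and 0.42 in hypothyroid livers, apart by 0.07, and its other probes gave -0.55 and -0.57.

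Among regulators and carriers of mitochondria, lower and higher genes stood side by side. Ppargc1b, a coactivator of oxidative metabolism, read 0.98, 0.35, 1.18, 0.59 and 0.81 in controls and 0.27, 0.23, -0.032, 0.41 and 0.20 in hypothyroid livers. Control 832 overlapped the hypothyroid range, the difference was -0.57 ± 0.15 (limma adjusted p = 0.404), and another probe gave -0.48. Slc25a45, a carrier of the inner membrane, read 1.28, 1.63, 1.03, 0.79 and 1.48 in controls and 0.67, 0.74, 0.47, 0.75 and 0.58 in hypothyroid livers, with a difference of -0.60 ± 0.14 and of -0.71 ± 0.11 without control 616 (limma adjusted p = 0.0607). Gpd2, the mitochondrial glycerophosphate dehydrogenase known as a thyroid hormone target, read 0.53, 0.58, 0.62, -0.25 and 0.96 in controls and -0.061, 0.0083, -0.47, 0.049 and -0.065 in hypothyroid livers. Control 616 lay among the hypothyroid arrays, and without it the groups did not overlap and differed by -0.78 ± 0.12 (limma adjusted p = 0.0567). Tfb2m, a mitochondrial transcription factor, read 1.26, 1.08, 1.02, 1.06 and 0.78 in controls and 0.66, 0.63, 0.71, 0.77 and 0.73 in hypothyroid livers, but another probe gave -0.021. Higher were Hspa9, the chaperone that pulls proteins into the matrix, Polg2, the accessory subunit of the mitochondrial DNA polymerase, and Lonp1, a matrix protease. Hspa9 read 0.023, 0.22, 0.33, -0.11 and 0.20 in controls and 0.74, 0.52, 0.72, 0.41 and 0.52 in hypothyroid livers, a difference of 0.45 ± 0.095 (limma adjusted p = 0.276) with 0.48 for another probe. Polg2 and Lonp1 differed by 0.23 ± 0.063 and 0.20 ± 0.059.

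**Figure D4:**
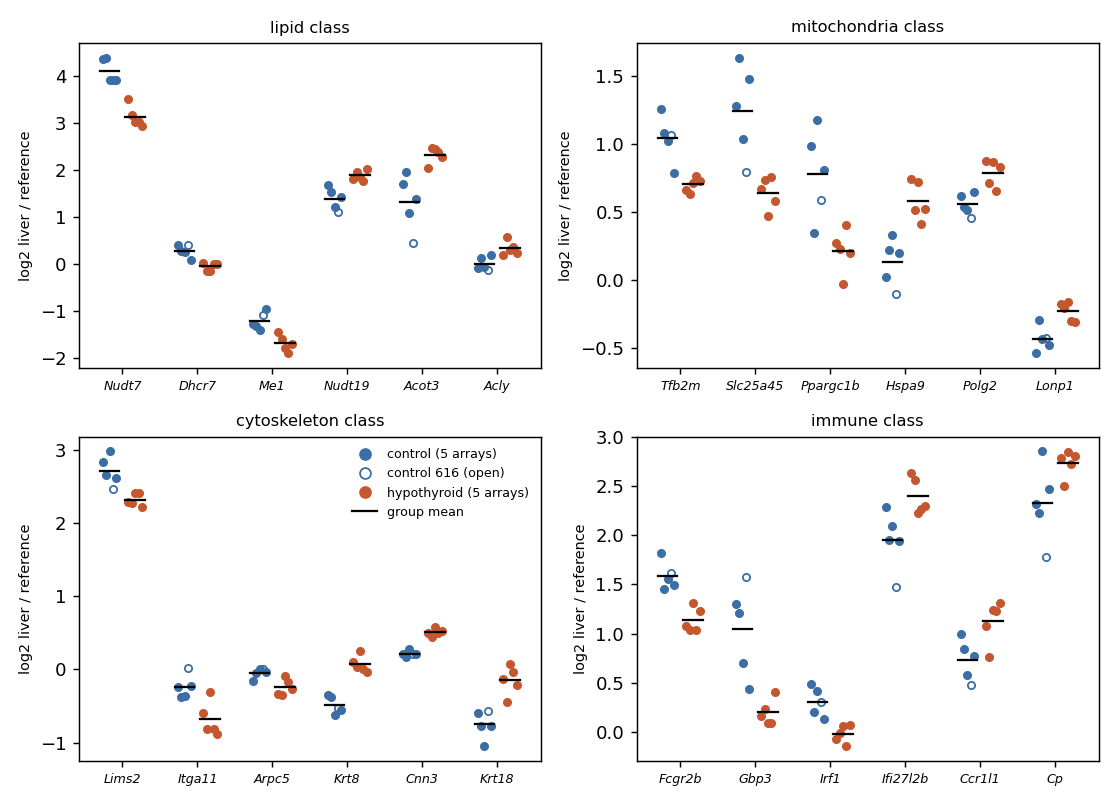
Log2 ratio of liver over reference on each array for the 3 lower and 3 higher genes with the smallest p in the lipid, mitochondria, cytoskeleton and immune classes, with group means as lines. Nudt7 separates the groups by 0.41 and Krt8 by 0.31, while Itga11, Ccr1l1 and Cp overlap.

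In the cytoskeleton class the keratins of hepatocytes stood out from a class with shares near the background. Of 291 genes, 9 were higher and 14 lower at unadjusted p below 0.05, and 4 and 1 had no overlap. Without control 616 the counts were 19 and 10 by p, and 9 and 1 by lack of overlap, so that the balance of directions turned. Without slide 141 they were 13 and 12, and 9 and 3. Krt8 and Krt18 form the keratin pair of the hepatocyte's intermediate filaments. Krt8 read -0.35, -0.38, -0.62, -0.53 and -0.56 in controls and 0.11, 0.041, 0.25, 0.0028 and -0.040 in hypothyroid livers. Its groups were 0.31 apart, a gap wider than the range of either group, and the difference was 0.56 ± 0.074 (limma adjusted p = 0.0709). Without control 616 Krt8 rose by 0.55 ± 0.080 (limma adjusted p = 0.0472), and another probe gave 0.45. Krt18 read -0.59, -0.78, -1.05, -0.56 and -0.77 in controls and -0.13, -0.44, 0.076, -0.035 and -0.21 in hypothyroid livers, without overlap, and differed by 0.60 ± 0.11 (limma adjusted p = 0.184). Krt23 differed by 0.68 ± 0.25 with overlap, and of 42 keratins and other intermediate filament genes 4 were higher and 0 lower. None of the 5 bile duct markers, the keratins Krt7 and Krt19 among them, passed unadjusted p below 0.05 in limma in either direction. Their median difference of -0.41 was -0.12 without control 616, where they averaged -0.63 against -2.33 to -1.91 on the other controls. Cnn3, an actin-binding calponin, read 0.22, 0.16, 0.28, 0.21 and 0.21 in controls and 0.50, 0.44, 0.59, 0.50 and 0.53 in hypothyroid livers. This small difference, 0.29 ± 0.047 (limma adjusted p = 0.13), had a gap of 0.16 between groups whose ranges were 0.11 and 0.15. Tubb2a, a beta-tubulin, differed by 0.56 ± 0.14, and its other probes gave 0.44 and 0.32.

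The 14 lower cytoskeletal genes were spread over 4 of 73 actin and actin-binding genes, 4 of 38 integrin and focal adhesion genes, 3 of 79 tubulin and microtubule genes, 2 of 26 septin and spectrin genes and 1 of 33 myosin genes. Lims2, an adaptor of focal adhesions, read 2.83, 2.65, 2.98, 2.47 and 2.61 in controls and 2.28, 2.28, 2.41, 2.41 and 2.22 in hypothyroid livers, a difference of -0.39 ± 0.093 without overlap (limma adjusted p = 0.331). Itga11, a collagen-binding integrin subunit, read -0.23, -0.38, -0.37, 0.021 and -0.23 in controls and -0.59, -0.82, -0.31, -0.81 and -0.88 in hypothyroid livers. Control 616 was highest, hypothyroid 311 lay inside the control range, and within slide 136 the sign was the opposite. Arpc5, a subunit of the Arp2/3 complex, differed by -0.20 ± 0.064 with overlap. Its sign turned to 0.031 when arrays were only centred on their medians, where the median of all genes was 0.11. Cnn1 and Acta1, smooth and skeletal muscle proteins, differed by -1.23 ± 0.43 and -0.63 ± 0.26 in the whole set and by -0.92 and -0.41 without control 616. Skeletal muscle markers read -0.37 on control 616 on average, -0.96 to -0.59 on the other controls and -1.07 to -0.95 on the hypothyroid arrays, and 2 of 6 were lower by p. The part of muscle RNA in these differences was not tested.

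In the immune class the share of lower calls was near that of all genes, and few genes were called higher. Of 376, 4 were higher (1.06%) and 25 lower (6.65%) at unadjusted p below 0.05, against 4.04% and 5.25% of all genes. The groups did not overlap for 0 higher and 7 lower genes. Without control 616 the counts were 6 and 28, and 1 and 7. Without slide 141 they were 5 and 15, and 3 and 13, so that the lower calls then lay below the share of all genes. Leukocyte surface and Ly6 antigens held 8 lower and 0 higher genes of 80, and interferon response genes 8 lower and 1 higher of 64. Their medians were -0.053 and -0.10, and -0.030 and -0.071 without control 616. With median centring, where the median of all genes was 0.11, they were 0.029 and 0.033. Relative to all genes they lay at -0.035 and -0.087 in the main fit and at -0.076 and -0.073 with median centring. Within slides 139, 141, 136 and 100 the interferon median was -0.10, -0.23, -0.062 and -0.16. Without slide 141, 3 of the interferon genes were lower and 1 higher. Of 30 complement genes and of 29 antigen presentation genes, 0 passed unadjusted p below 0.05 in either direction by limma, and the complement median of 0.27 was 0.096 without control 616.

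Fcgr2b, the inhibitory Fc receptor, read 1.82, 1.46, 1.56, 1.62 and 1.49 in controls and 1.08, 1.03, 1.31, 1.04 and 1.23 in hypothyroid livers. The groups were 0.14 apart, the difference was -0.45 ± 0.084 (limma adjusted p = 0.184), and its other probes gave -0.26 and -0.30. The pattern receptors Tlr2, Tlr4 and Tlr7 were also among the lower genes. Tlr2 read -0.95, -1.22, -1.05, -0.59 and -1.14 in controls and -1.70, -1.46, -1.41, -1.39 and -1.31 in hypothyroid livers, apart by 0.09, while the groups of Tlr4 were apart by 0.0030. Gbp3, a guanylate-binding protein induced by interferon, read 1.30, 1.21, 0.70, 1.58 and 0.44 in controls and 0.17, 0.23, 0.093, 0.091 and 0.40 in hypothyroid livers. Controls spread over 1.14 and hypothyroid livers over 0.31, and the difference was -0.85 ± 0.19 (limma adjusted p = 0.312). Irf1, an interferon regulatory factor, read 0.49, 0.21, 0.41, 0.31 and 0.13 in controls and -0.072, -0.014, 0.062, -0.15 and 0.069 in hypothyroid livers, at -0.33 ± 0.078, with another probe at -0.16. Irf2 and Ifit1 differed by -0.33 ± 0.10 and -0.51 ± 0.21. Cd163, a scavenger receptor of macrophages, differed by -0.56 ± 0.18. The 5 Kupffer cell markers had a median difference of 0.20, which turned to -0.047 without control 616. Ccl19 and Ccl21a, chemokines of lymphoid tissue, differed by -0.56 ± 0.14 and -0.66 ± 0.23. Saa3, an acute phase protein, read -1.04, -1.29, 0.40, 0.024 and -1.31 in controls and -1.35, -1.45, -1.49, -1.52 and -1.32 in hypothyroid livers, with controls 522 and 616 far above the rest. On the higher side, Ifi27l2b differed by 0.45 ± 0.14, the chemokine receptor Ccr1l1 by 0.39 ± 0.12 and the copper carrier ceruloplasmin, Cp, by 0.40 ± 0.17, all with overlap.

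**Figure D5:**
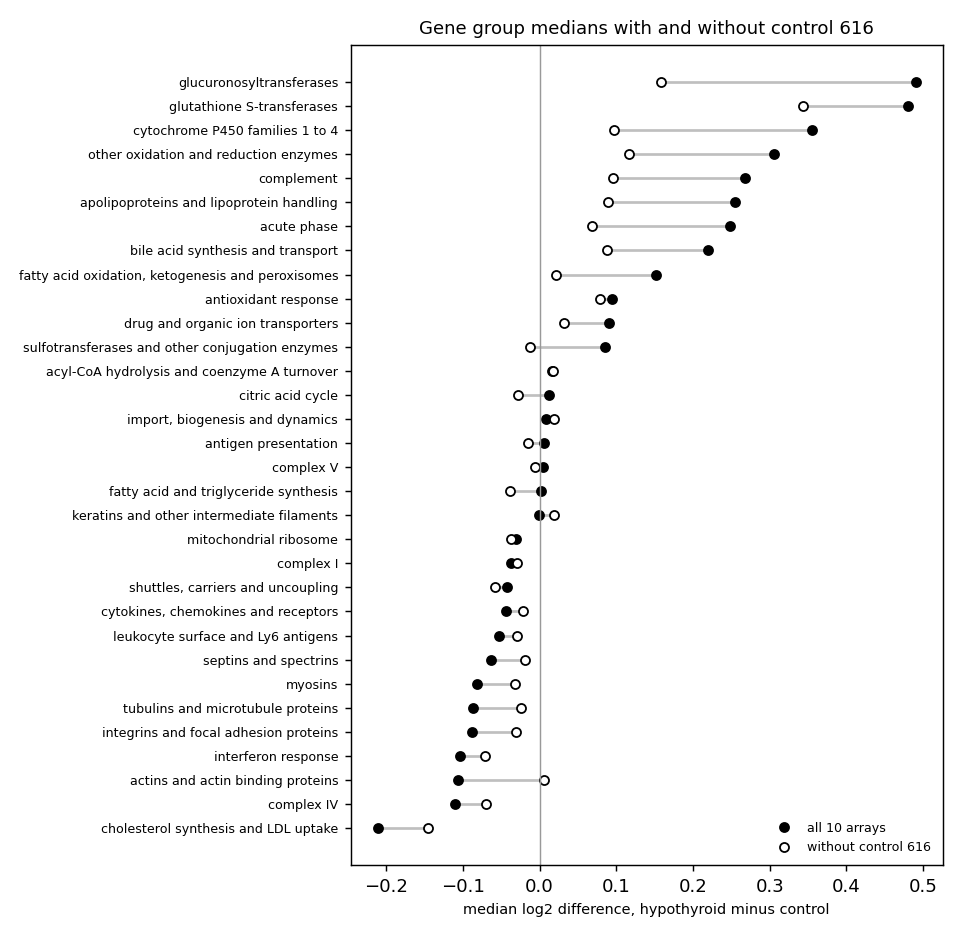
Median log2 difference, hypothyroid minus control, for each gene group of at least 10 genes, with all 10 arrays (filled) and without control 616 (open). Glutathione S-transferases keep 0.34 of 0.48, while the P450 median goes from 0.36 to 0.097. That of actin genes goes from -0.11 to 0.0064, or to 0.065 with all arrays and median centring, where the median of all genes was 0.11.

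Outside the classes, the 3 lower and 3 higher genes with the smallest p showed that the classes did not hold the clearest differences alone. Bmf, a BH3-only promoter of apoptosis, read 1.07, 0.26, 0.82, 0.99 and 0.69 in controls and -0.82, -1.08, -0.23, -0.50 and -0.38 in hypothyroid livers. The groups were 0.49 apart and the level was 0.388-fold that of controls (-1.37 ± 0.19, limma adjusted p = 0.08), but another probe above the limit gave 0.038. Flywch2 read 1.34, 1.19, 1.1, 1.32 and 1.07 in controls and 0.72, 0.64, 0.78, 0.65 and 0.70 in hypothyroid livers, and Zfp386, a zinc finger gene, differed by -0.62 ± 0.085, with -0.39 for another probe. Bmp6, the ligand that induces hepcidin in liver, read 0.33, 0.19, 0.20, 0.023 and 0.21 in controls and 0.61, 0.56, 0.65, 0.87 and 0.75 in hypothyroid livers, a difference of 0.50 ± 0.075 where another probe gave 0.15. Creg1, a secreted glycoprotein, differed by 0.52 ± 0.084, and its other probes gave 0.47 and 0.56. St6gal1, the sialyltransferase of serum glycoproteins, read 1.07, 1.26, 1.19, 0.64 and 1.00 in controls and 1.58, 1.68, 1.92, 1.60 and 1.74 in hypothyroid livers, with another probe at 0.17. Without control 616, Bmf and Flywch2 and Zfp386 fell and St6gal1 rose at limma adjusted p between 0.0446 and 0.047. The remaining genes called by that limma test were Nrp1, a coreceptor of semaphorins and VEGF, Tlcd2, Csrp3, Sned1, Frmd8, Col5a3 and Igf2bp3. The first 5 fell by 0.95, 0.82, 1.21, 0.69 and 0.54, and Col5a3 and Igf2bp3 rose by 0.78 and 0.47. With all 10 arrays Nrp1, Tlcd2, Csrp3 and Col5a3 differed by -0.79, -0.66, -1.01 and 0.64, with overlap (limma adjusted p 0.277 to 0.385). Sned1, Frmd8 and Igf2bp3 then differed by -0.79, -0.63 and 0.58 without overlap (limma adjusted p 0.117 to 0.206). Other probes gave -0.22 for Nrp1, -0.31 and -0.15 for Sned1, -0.36 for Frmd8, 0.03 for Col5a3 and 0.53 and 0.18 for Igf2bp3.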

How the data were processed

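The deposited files held scanner output of Agilent Feature Extraction 10.1.1.1, with spot intensity in a red and a green channel as the authors' scanner gave it, before any normalization. Median signals were background-corrected with normexp (offset 50), normalized within each array by loess (span 0.2) and turned to log2 liver over reference, with control spots and spots with outlier flags left out of the loess fit and, for the latter, of the averages. Both arrays of slide 141 had their channels exchanged. Repeated spots of 245 probes were averaged. The background limit was the mean plus 3 SDs of negative control spots, trimmed by 5%, as in the methods. Groups were compared with lmFit and eBayes of limma 3.58.1 in R 4.3.3, two-sided, with Benjamini-Hochberg adjustment over 41174 probes. The methods' Fs test of MAANOVA was not run, and limma's moderated test stands in for it.

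Symbols came from a match of unversioned accessions to RefSeq tables, and no probe without such a match was named. The genes named were the 3 lower and 3 higher with the smallest unadjusted p in each class and outside the classes, with Dio1, Thrsp and Me1; others were chosen after their values were seen, and 1 gene of the lipid class is not reported here. The gene classes, the marker lists and the subject itself were chosen with earlier results of these data known. Alternatives tried were each array left out, dyes as labelled, slide 141 left out, no background correction, the software's processed signals, median centring, loess span 0.3, another filter on low signals, slide as a fixed or a random block, and probes averaged to genes. On simulated data with the arrays' own spread, 100 of 41174 probes of the hypothyroid against control comparison were changed at each size. There limma recovered 46% of changes of 0.5 and 86% of changes of 1 on the log2 scale after adjustment. These shares hold for that number of changed probes, and the number is not known in the real data. With all arrays 2 probes passed adjustment, while Gstm1 at 1.43, Gstm3 at 1.26 and Nudt7 at -0.96 did not. The simulated shares therefore do not give the power of the real comparison. Precision is limited by the 5 arrays a group. Each array was 1 animal, so the spread behind the p-values mixes differences between animals with those of labelling, array and slide.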

Additional observations from a re-analysis of the deposited data

Results flagged for a closer look

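Among 86 sets of 5 arrays tested for a single far value, 8 stood out, or 9.30%, where chance gives about 5%, and control 616 was the far array in 5 of them. Dividing an array's distance from its nearest neighbour by the range of the 5 gave 0.844 for the detoxification median of controls, where control 616 read -0.63, 0.817 for the lipid median, where it read -0.34, and 0.936 for the cytoskeleton median, where it read 0.22. For single genes the share was 0.739 for Gstm3 in controls (control 616 lowest, at 1.42) and 0.834 for Dio1 in controls (control 616 lowest, at 3.94). Hypothyroid 311 was the highest hypothyroid array for the detoxification median, at 0.20 with a share of 0.814, and for the lipid median, at 0.13 with a share of 0.779. Creg1 in hypothyroid 723, at 1.66, was the lowest of its group with a share of 0.729.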

How the results depend on the processing

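Detoxification genes kept a positive median in each alternative run and counts within 1.5 times the main 48 in all but 2 of them. With the dyes of slide 141 as labelled, 0 probes passed adjustment in limma (288 had unadjusted p below 0.05), and genes with unadjusted p below 0.05 numbered 0 for detoxification, 0 for lipid, 1 for mitochondria, 3 for cytoskeleton and 2 for immune, with an immune median of 0.0083. With median centring in place of loess the median of all genes moved to 0.11, 1 probe passed adjustment, the counts were 17, 4, 1, 2 and 3, and the lipid, mitochondrial, cytoskeletal and immune medians were 0.24, 0.15, 0.064 and 0.075. The software's processed signals gave 0 probes past adjustment (2243 unadjusted) and counts of 20 for mitochondria, 13 for cytoskeleton and 15 for immune. Leaving out slide 141 gave 0 probes (2832 unadjusted), a fixed block for slide 0 (2742 unadjusted) with 47 immune genes, a random block 14, and probes averaged to genes 0 (1257 unadjusted). With control 616 and slide 141 both left out, a setting chosen after seeing the data, 1 probe passed and 46 lipid genes had unadjusted p below 0.05. Leaving out 1 array at a time gave 1 to 25 probes, the most without control 616, and 37 to 59 detoxification, 17 to 39 lipid, 24 to 58 mitochondrial, 17 to 32 cytoskeletal and 22 to 44 immune genes. The fewest lipid genes came without hypothyroid 311, with 18 without hypothyroid 723, the most mitochondrial genes without control 832 and the most immune genes without control 522. Class medians in those settings ran from 0.091 to 0.28 for detoxification, 0.010 to 0.096 for lipid, -0.043 to -0.0080 for mitochondria, -0.082 to -0.0065 for cytoskeleton and -0.039 to -0.014 for immune, and control 616 set the lowest of the first pair. Of 38 named genes, 2 turned sign, Slc22a29 with processed signals (0.086) and Arpc5 with median centring (0.031). The cause of these shifts was not tested. Named genes called after adjustment numbered 9 without control 616, 8 with slide as a random block, 1 each without hypothyroid 311 and 723, and 0 otherwise. By animal number, no paired analysis was possible because the animals of the arrays carry different numbers in the groups, and the slide, shared by both groups on 4 of 6 slides, served as the block.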
